A study of Mus musculus with 28 samples.

Results

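Chromatin accessibility was examined at 3 loci that are known barriers to reprogramming, Cdkn2a, Cdkn1a and Trp53, during the conversion of mouse embryonic fibroblasts (MEFs) towards induced pluripotent stem cells. The regions are the peaks of open chromatin that overlapped a 120 kb window at Cdkn2a (mm9 chr4:88870000-88990000), a 110 kb window at Cdkn1a (chr17:29180000-29290000) or a 100 kb window at Trp53 (chr11:69350000-69450000), with overlapping peaks of all libraries merged. This gave 45 regions of 172177 in the genome, of which 9 lay in the Cdkn2a window, 16 in the Cdkn1a window and 20 in the Trp53 window. Of the 45, 13 were called in 1 library only, and the other 32 (7, 11 and 14) were called in at least 2 of the 28 libraries and are numbered within each window from the lowest coordinate.

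The assay was ATAC-seq, which marks accessible DNA by inserting sequencing adapters with a transposase, and there were 7 groups of 4 libraries. All cells came from Tet2-/- embryos (strain V6.5 129XBI/6, embryonic day 12.5) that also carried OKSM, the reprogramming factors Oct4, Klf4, Sox2 and Myc, under doxycycline control, and the rtTA activator. Untreated MEFs, for which no cell sorting is labelled, formed 1 group (day 0). The other groups were cells taken at day 5 or day 10 of reprogramming in medium with doxycycline, LIF and the 2i inhibitors PD0325901 and CHIR99021, after retroviral transduction with an empty pMXs vector, with wild-type Tet2 (Tet2-WT) or with a Tet2 mutant that the series describes as stalling (Tet2-E), and they were sorted on SSEA1-RFP. Day, doxycycline, virus, sorting and culture medium therefore all separated the MEFs from every other group, and cannot be told apart in a comparison with MEFs. The reprogramming cells were also grown on fibroblast feeder cells before they were sorted, a further difference from the MEFs that cannot be told apart from these. Every group lacked endogenous Tet2, so there is no wild-type fibroblast among them. The study's design asks how the form of Tet2 returned to these cells affects reprogramming.

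Cdkn2a encodes unrelated proteins from overlapping transcripts. Ink4a blocks the cyclin D kinases and so keeps Rb active, and Arf blocks Mdm2, the ligase that marks p53 for destruction. Trp53 encodes p53 itself, the transcription factor that answers DNA damage and oncogene stress, and Cdkn1a encodes p21, a cyclin-dependent kinase inhibitor and a classic p53 target. Loss of these genes is known to raise the yield of induced pluripotent cells, and Tet2 acts on the methylated cytosine of CpG pairs.

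The sequence before each start site is shown because the loci differ there in CpG content and in p53 motifs. Each line gives the 250 bases upstream of a start listed by RefSeq, 5′ to 3′ on the gene's strand, and capitals mark the decamers of the p53 response element consensus where 2 of them lie with at most 13 bases between them (the decamer reads the same on both strands). These positions are on GRCm38, not on mm9. Coordinates of the builds were not converted, so which of the regions described here lies at which start was not determined.
Cdkn2a, Arf start, minus strand, chr4:89294620-89294869: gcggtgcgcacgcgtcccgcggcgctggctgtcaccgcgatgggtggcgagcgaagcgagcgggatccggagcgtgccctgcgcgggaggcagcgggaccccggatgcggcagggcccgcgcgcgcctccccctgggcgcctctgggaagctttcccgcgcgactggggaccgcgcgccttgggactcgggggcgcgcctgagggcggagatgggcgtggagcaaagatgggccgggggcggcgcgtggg
Cdkn2a, Ink4a start, minus strand, chr4:89282193-89282442: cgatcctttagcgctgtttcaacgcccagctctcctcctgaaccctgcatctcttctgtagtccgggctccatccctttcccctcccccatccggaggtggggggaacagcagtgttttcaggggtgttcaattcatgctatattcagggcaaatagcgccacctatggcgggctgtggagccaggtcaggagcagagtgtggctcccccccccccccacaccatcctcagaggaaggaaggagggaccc
Cdkn1a, first start, plus strand, chr17:29090729-29090978: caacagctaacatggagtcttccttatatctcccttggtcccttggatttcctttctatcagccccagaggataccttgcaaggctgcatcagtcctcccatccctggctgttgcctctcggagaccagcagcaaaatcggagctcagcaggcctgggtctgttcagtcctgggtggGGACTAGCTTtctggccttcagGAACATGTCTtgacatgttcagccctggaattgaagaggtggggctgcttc
Cdkn1a, second start, plus strand, chr17:29093519-29093768: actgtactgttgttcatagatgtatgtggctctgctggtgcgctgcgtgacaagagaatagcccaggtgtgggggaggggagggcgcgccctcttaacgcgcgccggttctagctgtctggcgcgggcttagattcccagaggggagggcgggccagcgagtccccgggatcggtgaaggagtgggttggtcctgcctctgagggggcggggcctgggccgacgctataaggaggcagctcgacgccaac
Trp53, plus strand, chr11:69580109-69580358: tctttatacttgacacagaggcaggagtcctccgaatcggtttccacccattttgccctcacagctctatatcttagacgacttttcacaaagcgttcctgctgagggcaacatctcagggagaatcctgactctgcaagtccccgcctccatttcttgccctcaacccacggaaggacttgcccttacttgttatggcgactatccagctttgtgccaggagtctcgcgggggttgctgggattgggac

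The Arf stretch held 40 CpG pairs and was 78.4% G or C. That placed it at percentile 98.7 by CpG count among 32851 mouse promoters of the same length, whose median was 6 CpG pairs. The Ink4a stretch of the same locus held 7 CpG pairs. The second Cdkn1a start had 19 CpG pairs and a TATAA box, a motif found on the gene's strand in 16% of all promoters, and the first start had 2. The first Cdkn1a start was the one with paired p53 decamers, which ended 41 bases before the start. Such a pair was found in 21 of the 32851 promoters (0.0639%). The Trp53 stretch held 9 CpG pairs and no p53 pair. A motif match describes these letters and is not evidence of binding.

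Each library had its own deposited list of 27918 to 72332 peaks. The lists give no read totals, so relative depth was taken from the most frequent local background among the peaks checked in each list. In reads per position it was 0.503 ± 0.113 (SD, n = 4) in MEFs, 0.865 ± 0.0732 (n = 12) at day 5 and 0.522 ± 0.115 (n = 12) at day 10. This is a coverage, which depends on the number of reads and on the length given to each read. That length is not given and need not be the same in every library. The near-equal values of MEFs and day 10 therefore do not show equal read numbers. By this measure day 5 libraries were the deepest, with no overlap with MEFs (0.746 to 1.037 against 0.394 to 0.66). A region is described as called in a library when a peak of that library overlaps it, and a missing call means only that no peak passed the authors' threshold at that depth. The fold of a peak is the authors' own ratio of its pileup to the local background of its library, each plus 1. It describes a peak within its list and is not compared between libraries.

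Together the 3 windows were open in both fibroblasts and reprogramming cells, but by partly different regions. Of the 32 regions, 4 (12.5%) were called in all 28 libraries, against 7.04% of 109954 regions in the genome. Called in all 4 MEF libraries were 9 (28.1%, against 25.4% in the genome), and called in none of them were 13 (40.6%, against 40.9%). These 13 were 6 of the 11 Cdkn1a regions, 7 of the 14 Trp53 regions and none of the 7 Cdkn2a regions. The 2 Cdkn2a regions that were called less often at both later days, the Cdkn1a and Trp53 regions that appeared, and the constant regions beside them are described by locus below.

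**Figure D1:**
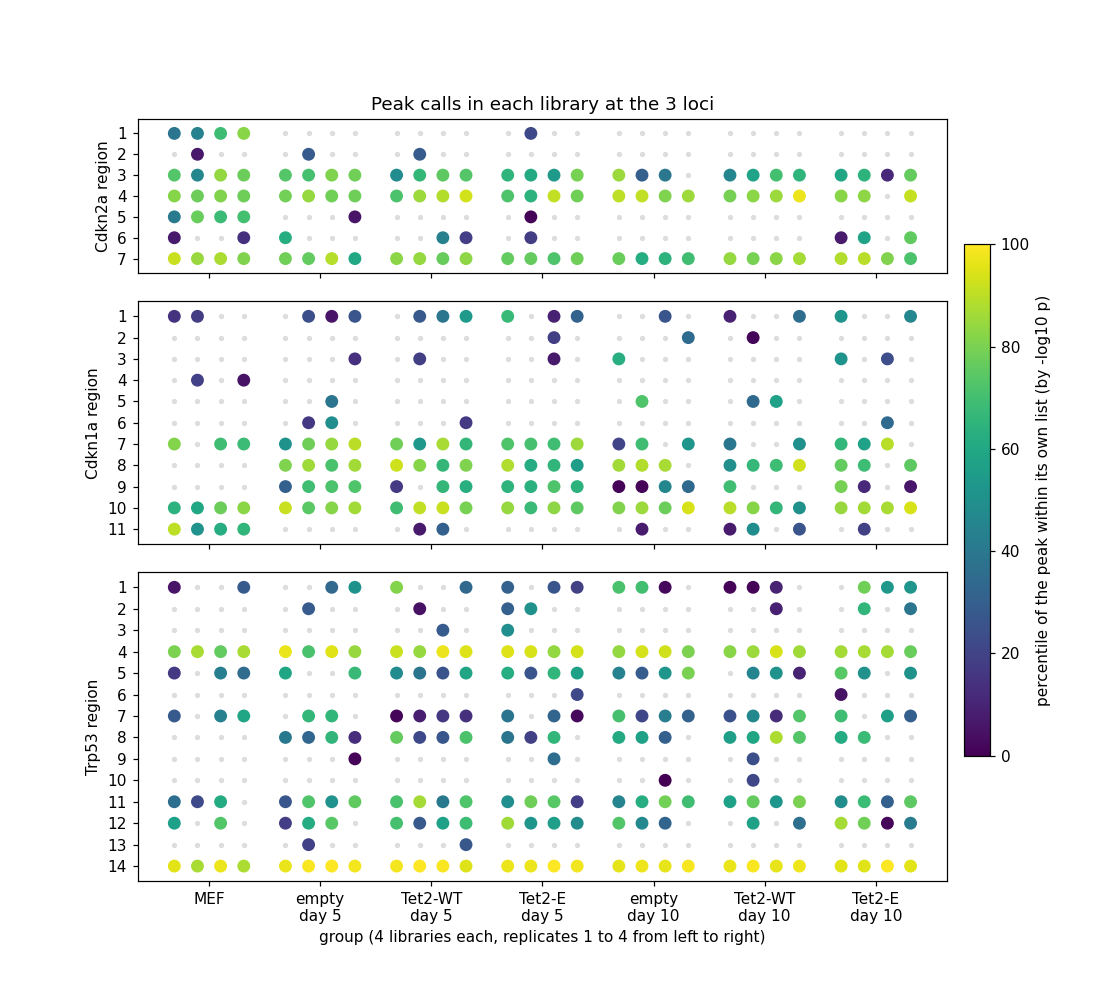
Peak calls at the 32 regions (rows, by locus and region number) in each of the 28 libraries (columns, 4 per group). A coloured point is a call, its colour the percentile of the peak among all peaks of its own list by -log10 p, and a small grey point is no call. Cdkn2a regions 1 and 5 are called in 4 of 4 MEF libraries and in 1 and 2 of 12 at day 5, and Cdkn1a region 8 shows the opposite pattern.

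**Figure D2:**
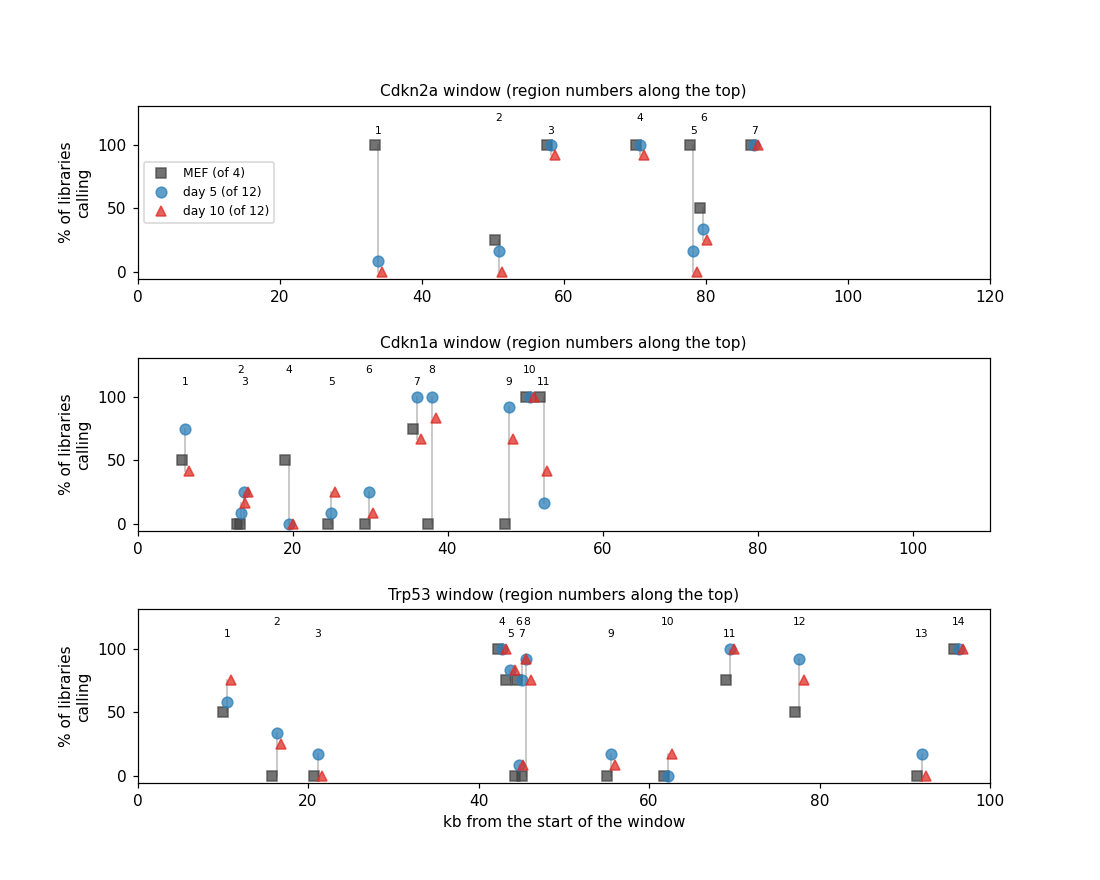
Share of libraries that called each region, in percent, against its distance in kb from the start of the window. Squares are MEFs (of 4 libraries), circles day 5 (of 12) and triangles day 10 (of 12), drawn 0.5 kb left and right of the centre so that equal shares stay visible. Cdkn2a region 7, Cdkn1a region 10 and Trp53 regions 4 and 14 are at 100% in all of them.

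At Cdkn2a, regions 1 and 5 were open in every MEF library and were called less often in reprogramming cells, while regions 3, 4 and 7 stayed called throughout. Region 1 (chr4:88903780-88903989, 210 bp) had deposited folds of 6.41, 7.02, 9.24 and 11.11 in the 4 MEF libraries, from pileups of 10, 9, 13 and 17 reads. It was called in 1 of 12 day 5 libraries (Tet2-E replicate 2, fold 5.73) and in none of 12 at day 10. The sets of libraries overlapped in that 1 day 5 library only. The difference passed at both days by Fisher's exact test with Benjamini-Hochberg adjustment over the genome (exact p = 0.00275, adjusted p = 0.0165 at day 5, and exact p = 0.000549, adjusted p = 0.00374 at day 10).

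Region 5 (chr4:88948086-88948376, 291 bp) followed the same course. Its folds in the MEF libraries were 6.25, 10.01, 8.74 and 8.84, with pileups of 12, 15, 15 and 15. At day 5 it was called in 2 of 12 libraries, with folds of 4.48 (empty vector, replicate 4) and 4.04 (Tet2-E, replicate 2), which were at percentiles 5.08 and 0.819 of their lists. At day 10 no library called it, which leaves a share of up to 26.5% (exact Clopper-Pearson 95% interval for 0 of 12, counting error only). Both differences passed Fisher's exact test (adjusted p = 0.0318 at day 5 and 0.00374 at day 10). Beside these differences, the background was 0.503 in MEFs, 0.865 at day 5 and 0.522 at day 10, and the mean list length 55688, 50015 and 37796 peaks, and their part in the lower number of calls was not tested. The day 5 call of region 5 rests on all 4 MEF libraries, since leaving out any 1 of replicates 1 to 4 moved the adjusted p to between 0.0834 and 0.0926, whereas the day 10 calls of both regions passed without any single library.

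The merged intervals of the constant Cdkn2a regions were wider than those of regions 1 and 5, but were joined from more libraries. In single libraries the widths of the strongest peaks overlapped. They were 124 to 494 bp in region 3, 263 to 922 bp in region 4 and 94 to 779 bp in region 7. In regions 1 and 5 they were 102 to 188 bp and 90 to 291 bp. Region 4 (chr4:88940237-88941233, 997 bp) was called in 27 libraries with a median fold of 8.55, at a median percentile of 82.1. Region 7 (chr4:88956394-88957270, 877 bp) was called in all 28, with a median fold of 8.01 at a median percentile of 80.2, and region 3 (chr4:88927912-88928491, 580 bp) in 27 with a median fold of 7.80 at a median percentile of 66.1. The median percentiles of regions 1 and 5 were 44.3 and 54.4 over the few libraries that called them, and in single MEF lists they reached 82.4 and 77.2. The missing calls were in Tet2-E replicate 3 at day 10 for region 4 and in empty vector replicate 4 at day 10 for region 3. The 2 remaining regions were sporadic: region 2 was called in 3 libraries, and region 6, which lies 1185 bp above region 5, in 2 of 4 MEF, 4 of 12 day 5 and 3 of 12 day 10 libraries. All 3 of those day 10 calls were in Tet2-E libraries, a feature chosen after its values were seen. The test of Tet2-E against empty vector at both days gave exact p = 0.296 and adjusted p = 1. By RefSeq the neighbours of Cdkn2a are Mtap, an enzyme of methionine salvage, and Cdkn2b, which encodes another Ink4 inhibitor, and the regions were not assigned to genes.

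At Cdkn1a, regions 8 and 9 had no peak in any MEF library and were called in nearly all day 5 libraries, region 11 went the other way, and region 10 between them was called everywhere. Region 8 (chr17:29217726-29218191, 466 bp) was called in 0 of 4 MEF, 12 of 12 day 5 and 10 of 12 day 10 libraries. Its folds ran from 5.99 through a median of 7.77 to 9.98 at day 5, and from 6.34 through 7.96 to 9.67 at day 10, with pileups of 14 to 31 reads over both days. Calls in MEF and day 5 libraries did not overlap, and the libraries without a call at day 10 were empty vector replicate 4 and Tet2-E replicate 3. The difference from MEFs passed Fisher's exact test at day 5 (exact p = 0.000549, adjusted p = 0.00449) and at day 10 (exact p = 0.00824, adjusted p = 0.0292). With 0 of 4 calls, the share in MEFs could still be up to 60.2% by the exact Clopper-Pearson interval. The day 10 call was lost without any 1 of MEF replicates 1 to 4 (exact test, adjusted p = 0.0741 to 0.0834). Day 5 libraries were deeper than MEF libraries. When every library was cut to the 27809 strongest peaks, the calls of region 8 were again 0 of 4 and 12 of 12 (exact test, adjusted p = 0.00400). That cut makes the lists equally long and leaves read depth as it was, so the part of depth in the difference was not tested. Where peaks had to cover at least 50% of a region, the day 5 difference fell to 58.3 percentage points and no longer passed (exact p = 0.0885, adjusted p = 0.196), and nor did the day 10 difference (adjusted p = 0.385).

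Region 9 (chr17:29227774-29228145, 372 bp) was called in no MEF library, in 11 of 12 at day 5 and in 8 of 12 at day 10. Its fold was below that of region 8 in 16 of the 18 lists that called both, with a median of 6.01 (4.37 to 6.59) at day 5 and of 5.01 (3.89 to 7.32) at day 10. The day 5 difference passed (Fisher's exact test, adjusted p = 0.0165) and the day 10 difference did not (adjusted p = 0.169). With the lists cut to equal length the day 5 difference was lost (exact test, adjusted p = 0.0669), as it was with 50% coverage (adjusted p = 0.178), and the part of depth in it was not tested. At day 10 the calls were in 4 of 4 empty vector, 1 of 4 Tet2-WT and 3 of 4 Tet2-E libraries.

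Region 10 (chr17:29230360-29230862, 503 bp) starts 2214 bp above region 9 and was called in all 28 libraries. Its folds in the MEF libraries were 6.64, 7.25, 8.45 and 10.09, and its median percentile over all lists was 82.4. Region 11 (chr17:29232168-29232623, 456 bp) follows after a gap of 1305 bp. It was called in 4 of 4 MEF libraries, with folds of 10.56, 6.69, 6.82 and 7.87, then in 2 of 12 at day 5 and 5 of 12 at day 10. The folds of these 7 later peaks were 4.04 to 5.24, at percentiles 6.87 to 48.5 of their own lists. The difference passed at day 5 (Fisher's exact test, adjusted p = 0.0318) and not at day 10 (adjusted p = 0.184), and the day 5 call was lost without any 1 of the 4 MEF libraries (adjusted p = 0.0834 to 0.0926).

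Region 7 (chr17:29215852-29216255, 404 bp) lies 1470 bp below region 8 and was already open in fibroblasts. It was called in 3 of 4 MEF libraries (folds 10.54, 8.46 and 8.47), in 12 of 12 at day 5 and in 8 of 12 at day 10. Region 8 next to it had no MEF call in the same 3 lists. The other regions of the window were called in fewer libraries. Region 1 was called in 16 libraries of all groups. Region 4 was called in 2 MEF libraries and nowhere else (exact p = 0.05, adjusted p = 0.129 against day 5 by Fisher's exact test), and regions 2, 3, 5 and 6, all absent from MEFs, in 3 to 6 libraries each. Among them region 5 (chr17:29204945-29205119) had the highest median fold, 6.11 in 4 libraries. RefSeq lists Srsf3, a splicing factor, and Rab44, a small GTPase, as the neighbours of Cdkn1a.

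At Trp53, most of the frequent regions were called at all times, and region 8 was the one whose calling changed. Region 14 (chr11:69445928-69446726, 799 bp) had the highest fold of the 3 loci in 27 of 28 lists, the exception being MEF replicate 4, where Cdkn2a region 1 was higher. Its folds were 13.56, 11.26, 15.88 and 10.82 in the MEF libraries and 10.0 to 15.8 at later days, and it stood at a median percentile of 97.2. Region 4 (chr11:69392504-69393059, 556 bp) was also called in all 28 libraries, with a median fold of 7.98. Region 11 (chr11:69419291-69419675, 385 bp) was missing only from MEF replicate 4, and region 12 (chr11:69427506-69427766, 261 bp) was called in 2 MEF, 11 day 5 and 9 day 10 libraries. Region 1 (chr11:69360256-69360739, 484 bp) was called in 18 libraries, 2 of them MEF.

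Regions 4 to 8 formed a row of 5 with gaps of 504, 746, 111 and 171 bp. Within it, region 5 was called in 3 of 4 MEF and 20 of 24 later libraries, and region 7 in 3 of 4 and 20 of 24, at median folds of 5.01 and 4.69. Region 8 (chr11:69395365-69395837, 473 bp), at the upper end of the row, was called in 0 of 4 MEF, 11 of 12 day 5 and 9 of 12 day 10 libraries. Its folds ran from 3.75 through a median of 4.45 to 6.14 at day 5 and from 4.64 through 5.37 to 6.87 at day 10. The day 5 difference passed Fisher's exact test (exact p = 0.00275, adjusted p = 0.0165) and the day 10 difference did not (exact p = 0.0192, adjusted p = 0.0634). When each library was left out in turn, an alternative added after the values were seen, it passed without any 1 of the 3 libraries that lacked the call, empty vector replicate 4 and Tet2-E replicates 3 and 4 (exact test, adjusted p = 0.0376 to 0.0377), whose removal can only raise the share. With lists of equal length the day 5 difference was lost (exact test, adjusted p = 0.463), as it was with 50% coverage (adjusted p = 0.725), and the part of depth in it was not tested. MEF replicate 2, which called neither region 5 nor region 7, had only 3 regions in the window, and MEF replicates 1, 3 and 4 called both. Regions 2, 3, 6, 9, 10 and 13 had no MEF call and were called in 2 to 7 libraries each. The neighbours of Trp53 by RefSeq are Wrap53, a telomerase Cajal body protein transcribed away from Trp53 on the opposite strand, and Atp1b2, a subunit of the sodium pump.

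**Figure D3:**
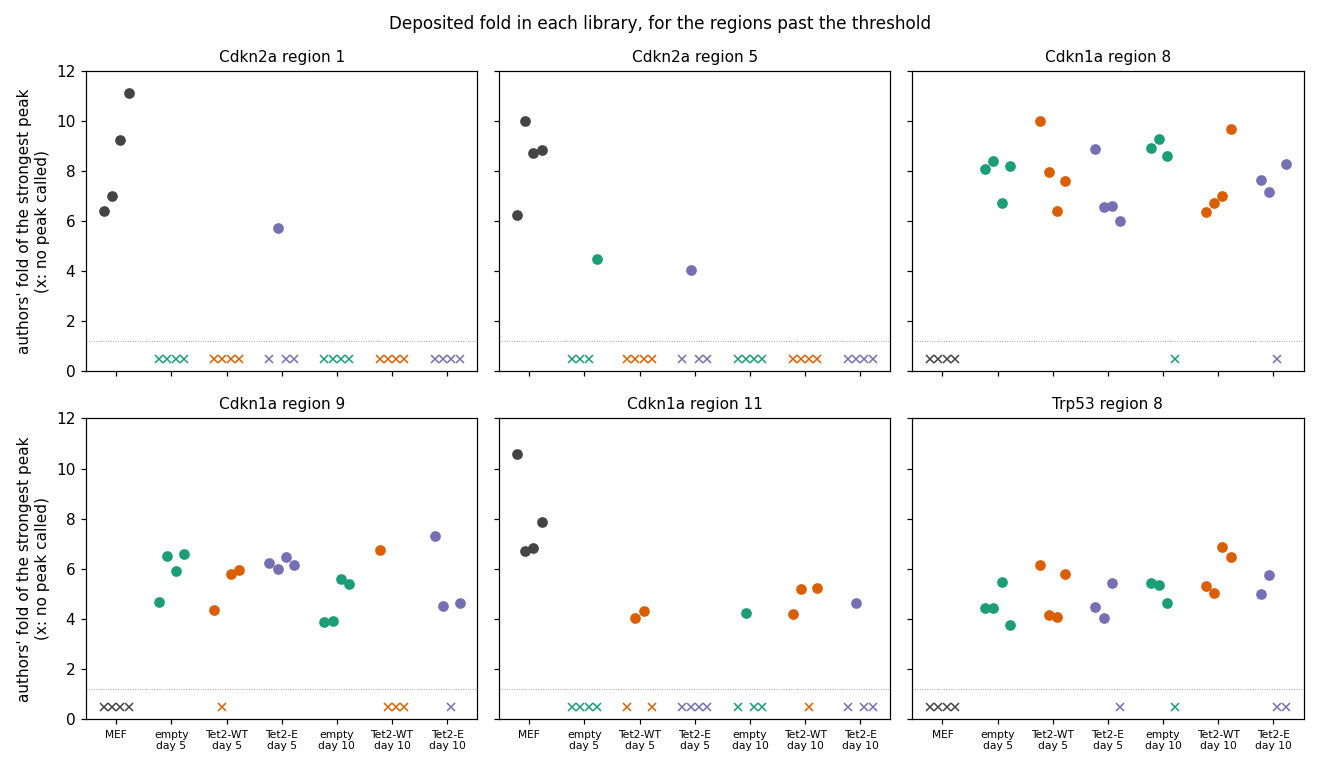
Deposited fold (y axis, the authors' ratio) of the strongest peak in each library for the 6 regions that differed between MEFs and a later day, by group (x axis, replicates 1 to 4 from left to right). A cross marks a library with no peak. Cdkn1a regions 8 and 9 and Trp53 region 8 have crosses in all 4 MEF libraries, and Cdkn1a region 11 has a peak in all 4 MEF libraries and crosses in 17 of 24 later ones. Folds are not comparable between libraries.

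Counted over the 3 loci, 6 of 28 regions tested differed between MEFs and day 5 (21.4%), against 25.9% of 99090 regions in the genome (29.8% at an unadjusted p under 0.05). Of these 6, 3 were called more often at day 5 (Cdkn1a regions 8 and 9 and Trp53 region 8) and 3 less often (Cdkn2a regions 1 and 5 and Cdkn1a region 11), against 9.81% more often and 16.1% less often in the genome. Between MEFs and day 10, 3 of 26 differed (11.5%), against 28.2% of 89226 (31.5% at an unadjusted p under 0.05, which 4 of the 26 reached). They were Cdkn1a region 8, called more often, and Cdkn2a regions 1 and 5, called less often, against 5.66% more often and 22.6% less often in the genome. The shares at the loci were thus close to the genome's at day 5 and below it at day 10, on few regions. The median change in the share of calling libraries at day 5 was -8.33 percentage points at Cdkn2a, 25 at Cdkn1a and 16.7 at Trp53, and 0 over the genome. At day 10 it was -16.7, 8.33 and 20.8, and -8.33 over the genome. Both comparisons use the same 4 MEF libraries.

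Between day 5 and day 10, none of the 30 regions tested passed the exact test stratified by vector, and 0 had an unadjusted p under 0.05. In the genome 1.15% of 83195 regions passed, 0.144% more often and 1% less often called at day 10, and 12.2% had an unadjusted p under 0.05. The smallest p at the loci belonged to Cdkn1a region 7, called in 12 of 12 libraries at day 5 and 8 of 12 at day 10 (exact p = 0.107, adjusted p = 0.570). Where a library was required to cover at least 50% of the region with its peaks, the counts became 11 of 12 and 2 of 12 and the difference passed (exact p = 0.00114, adjusted p = 0.0498), while the day 10 libraries had the lower depth. The part of depth in that difference was not tested.

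No difference between empty vector, Tet2-WT and Tet2-E was detected at any of the regions. With both days in an exact test stratified by day, 0 of 27 regions passed for Tet2-WT against empty vector, 0 of 26 for Tet2-E against empty vector and 0 of 26 for Tet2-E against Tet2-WT, and 0 had an unadjusted p under 0.05 in any of the 3. In the genome 0% passed in each comparison, with 525 of 74168 (0.708%), 340 of 71000 (0.479%) and 404 of 73329 regions (0.551%) at an unadjusted p under 0.05. The lowest p at the loci was that of Cdkn1a region 9, called in 8 of 8 empty vector and 4 of 8 Tet2-WT libraries (exact p = 0.0714, adjusted p = 1). Next came Cdkn1a region 11, called in 5 of 8 Tet2-WT libraries and in 1 of 8 of either other vector (exact p = 0.12, adjusted p = 1). The smallest p of any region in the genome for Tet2-WT against empty vector was 0.000408 by the exact test before adjustment. That is the lowest p this test can give with 4 libraries of each vector at each day. With so few regions of the genome at an unadjusted p under 0.05, even that value could not pass after adjustment. None of the regions could thus have passed in the 3 comparisons, whatever its calls, and a missed threshold does not show that the vectors act alike.

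The number of regions called per library, counted over all 45 regions with those of a single library included, was lower in reprogramming cells at Cdkn2a and had a higher mean at Cdkn1a and Trp53. In the Cdkn2a window MEF libraries called 6, 6, 5 and 6 regions (5.75 ± 0.5, SD, n = 4), compared with 3.75 ± 0.866 at day 5 (n = 12, 3 to 6) and 3.25 ± 0.754 at day 10 (n = 12, 2 to 4). The MEF and day 10 libraries did not overlap, and at day 5 only Tet2-E replicate 2 reached the MEF range. The day 10 lists were shorter (37796 peaks on average, against 55688 in MEFs), and per 10000 peaks of a list the Cdkn2a window held 1.17 ± 0.280 peaks in MEFs, 0.863 ± 0.240 at day 5 and 1.18 ± 0.288 at day 10. Scaled in that way, MEFs and day 10 differed by less than the SD at Cdkn2a, but the scaled values count peaks, and a region can hold more than 1. Before scaling, the Cdkn2a window held 6.25 peaks per library in MEFs, 4.25 at day 5 and 4.33 at day 10. The scaled values are thus not set directly against the counts of regions. In the Cdkn1a window MEF libraries called 4, 5, 3 and 4 regions (4 ± 0.816), day 5 libraries 5.5 ± 1.09 (4 to 7) and day 10 libraries 5.08 ± 1.16 (4 to 7), and the ranges overlapped. In the Trp53 window the MEF counts were 8, 3, 6 and 6 (5.75 ± 2.06), with 8.08 ± 1.16 at day 5 (6 to 10) and 7.75 ± 1.29 at day 10 (5 to 10), again with overlap. Per 10000 peaks of a list the mean numbers of peaks were 0.765, 1.12 and 1.38 at Cdkn1a and 1.01, 1.69 and 2.16 at Trp53, for MEFs, day 5 and day 10. With the 32 regions called in at least 2 libraries alone, the counts in MEFs, at day 5 and at day 10 were 5.75, 3.75 and 3.08 at Cdkn2a, 3.75, 5.5 and 4.75 at Cdkn1a, and 5.25, 7.92 and 7.58 at Trp53. Among the vectors, the day 5 means were 3.75 for each at Cdkn2a, and 5.75 (empty vector), 5.5 (Tet2-WT) and 5.25 (Tet2-E) at Cdkn1a, differences smaller than the SDs of 1 to 1.26 within the Cdkn1a groups. At Trp53 they were 7.25 ± 1.26, 8.5 ± 0.577 and 8.5 ± 1.29, and the libraries overlapped, with 6, 9, 7 and 7 regions for empty vector, 9, 8, 8 and 9 for Tet2-WT and 10, 7, 9 and 8 for Tet2-E.

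**Figure D4:**
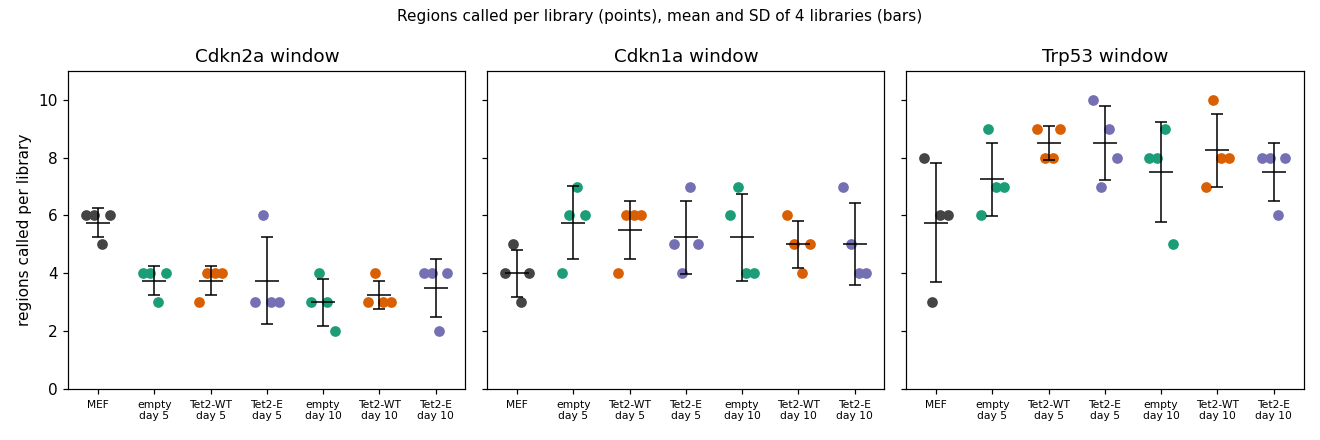
Number of regions called per library (y axis) in each window, by group (x axis). Points are the 4 libraries of a group, horizontal bars the mean and error bars the SD. The Cdkn2a counts are 5 or 6 in MEFs and 2 to 4 at day 10, and the Cdkn1a and Trp53 counts of all groups overlap.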

How the data were processed

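ATAC-seq peak lists of 28 libraries were analysed, 1 list per library, with no pooling. The submitters' processing notes list Bowtie2, SAMtools, bedtools, MACS2 and build mm9. Their versions and settings, the read filters and whether cut sites were shifted are not given in sources used here. The deposited fold is the authors' ratio of summit pileup plus 1 to local background plus 1. The -log10 p and -log10 q columns come from the authors too, with q just under 0.01 for the weakest peak in each list, and the deposited score is -log10 q times 10 in all but 27 of 1276485 peaks. Pileups recomputed from these deposited values were whole numbers for all peaks checked (every 15th), within a tolerance of 0.0002 in -log10 p. They also gave the local backgrounds, whose most frequent value in each list was used as a measure of depth.

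Peaks on chromosomes 1 to 19 and X were merged across libraries (overlap of 1 bp or more). Regions called in at least 2 of 28 libraries were numbered and tested; counts per library include the others. Coordinates are counted from 1. The number of calling libraries was compared by 2-sided Fisher's exact test (MEFs against each day) or, stratified by vector or day, by an exact conditional test. A region was tested when 2 or more compared libraries called it, with Benjamini-Hochberg adjustment over all of these and a threshold of 0.05. The code was tested on simulated data (Python 3.11.15, scipy 1.17.1, pandas 2.3.3). The labels do not say whether replicates are separate cultures, so the spread behind each p-value is that between libraries and could be technical only.

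Named are regions past the threshold, called in all 28 libraries, in all 4 MEF libraries, or in 0 MEF and at least 10 of 12 later libraries, and the 5 with the highest median fold per locus; others are named only to complete a count. Windows, regions and lists were chosen with earlier results of these data known. Alternatives tried were the minimum number of libraries (4 or 1), 50% coverage, a summit in the region, a -log10 q of at least 5, equal numbers of peaks, leaving out replicates, and the replicate number as a block. Other genes of the pathway and marker genes of fibroblasts and pluripotent cells were not analysed here, since no mm9 annotation was used. Promoter sequences and neighbouring genes are from RefSeq on GRCm38.p6, matched by symbol for 3 of 3 genes, and no GRCm38 position was set against a peak.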

Additional observations from a re-analysis of the deposited data

Results flagged for a closer look

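In 8 of 21 groups of 4 libraries (3 windows, 7 groups), 1 library lay apart from the other 3 in its number of called regions. The gap, as a share of the group's range, exceeded Dixon's 95% critical value. For continuous values chance gives this in about 1 in 20 groups. That rate does not hold for small whole numbers that often tie, so the 8 groups cannot be set against it. In all 8 the other 3 libraries had equal counts, so the gap was the whole range, and any difference from such a tie passes this rule. In 4 of the 8 the gap was a single region, the smallest step. These were in the Cdkn2a window: MEF replicate 3 with 5 regions against 6, empty vector day 5 replicate 3 with 3 against 4, Tet2-WT day 5 replicate 1 with 3 against 4, and Tet2-WT day 10 replicate 2 with 4 against 3. The fourth region of that last library is a peak called in no other library, and over the regions called in at least 2 libraries its count is 3, as in the other libraries of its group. Over those regions the values of the other 7 are unchanged.

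The other 4 had larger gaps. Tet2-E day 5 replicate 2 called 6 regions in the Cdkn2a window, against 3 in each of the other libraries of its group, and its calls include Cdkn2a regions 1 and 5, the regions otherwise called almost only in MEFs. Tet2-E day 10 replicate 3 called 2 regions in the Cdkn2a window against 4, and 6 in the Trp53 window against 8. Tet2-WT day 5 replicate 1 called 4 regions in the Cdkn1a window against 6.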

How the results depend on the processing

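No region difference that passed in the main setting reversed its direction under any alternative that gave it a value. For peaks per library only the size of the shift was checked. At Trp53 the order of the day 5 and day 10 means changed with equal numbers of peaks, as given below. Of regions at the 3 loci, 6 differed between MEFs and day 5 and 3 between MEFs and day 10. Requiring peaks to cover at least 50% of a region left 2 at day 5 (Cdkn2a regions 1 and 5) and gave 1 region between day 5 and day 10 (Cdkn1a region 7); Cdkn1a region 11 had no value there. With the 27809 strongest peaks of every library, 6 differed between MEFs and day 10, adding Cdkn1a region 11 and Trp53 regions 5 and 11, and 4 at day 5, without Cdkn1a region 9 (exact test, adjusted p = 0.0669) and Trp53 region 8 (adjusted p = 0.463). Leaving out the libraries of 1 replicate number at a time left 1 to 3 regions at day 5 and 2 at day 10, where 3 against 9 libraries cannot give an exact p below 0.00455. Leaving out single libraries, chosen after seeing the data, left 4 to 6 regions at day 5 and 2 to 4 at day 10. Cdkn2a regions 1 and 5 against day 10 passed under all 12 alternatives that left out no single library. Without the 3 day 10 libraries numbered 4, also chosen after seeing the data, Trp53 region 8 passed at day 10 (exact test, adjusted p = 0.0348).

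Peaks per library moved by more than 1 SD in these cases. At a -log10 q of at least 5 the mean was 5.25 (from 6.25) in MEFs at Cdkn2a, and 7.08 (from 8.33) at day 5 and 6.67 (from 8) at day 10 at Trp53. With equal numbers of peaks it was 4.75 in MEFs at Cdkn2a, 2.75 in MEFs and 4 at day 5 at Cdkn1a (from 4 and 5.58), and 2.75 in MEFs (from 5.75), 5 at day 5 and 6.67 at day 10 at Trp53. Leaving out replicates moved none of these means by 1 SD.

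Deviations of same-numbered libraries from their group means correlated weakly, with 0 pairs above 0.1 in any of the 6 comparisons (-0.0185 to 0.0902). For Tet2-WT against empty vector the median was 0.0239, against -0.0115 for libraries of other numbers. For Tet2-E it was 0.00797 against -0.00475 beside empty vector, and 0.0355 against -0.00822 beside Tet2-WT. In the comparisons with MEFs the same-numbered median was not the higher. A limit of 0.1 cannot exclude a weak pairing, so whether the numbers pair the samples was not settled. With the replicate number as a block, 4 regions differed at day 5 and 2 at day 10, and none between days or vectors.

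Depth limits all calls, and with 0 of 4 MEF libraries the exact interval of the share reaches 60.2%.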
